A study of Mus musculus with 30 samples.

Results

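The leucine-rich glioma-inactivated (LGI) ligands Lgi1, Lgi2, Lgi3 and Lgi4 and their receptors Adam11, Adam22 and Adam23 were followed in the hippocampus of 30 mice. They are 7 of the 17477 genes with counts in the series, taken by name, and they were selected on the counts of Lgi4, which was lower in isolated than in group-housed mice. The values of social isolation (SI) against group housing (GH) are therefore given as a description, without a test of Lgi4. All mice were C57BL/6J of the wild type, without a transgene or drug treatment, and each library was bulk RNA from the hippocampus of 1 mouse. After weaning they were kept alone (SI, 8 females and 7 males) or several to a cage (GH, 7 females and 8 males) into adulthood. The sources used here do not say which GH mice shared a cage, so p-values measure the spread between mice only.

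LGI proteins are secreted, carry leucine-rich repeats and EPTP repeats, and bind the extracellular part of ADAM proteins that have lost their protease activity. At excitatory synapses Lgi1 bound to Adam22 and Adam23 forms a bridge across the cleft that is linked inside the cell to the scaffold PSD-95, to AMPA receptors and, on axons, to Kv1 potassium channels. Loss of Lgi1 or of Adam22 causes epilepsy, and Lgi4 is best known as the glial ligand of Adam22 that Schwann cells need to myelinate peripheral nerve. Lgi2 and Lgi3 are further ligands of the same receptors, and Adam11 is the third catalytically inactive receptor of the group.

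All 7 genes are protein-coding. Lgi4 lies at chr7:31844361-31855954 on the plus strand of NCBIM37, the reference used here for the same Ensembl gene identifiers, and its exons overlap those of Fxyd3, which is on the opposite strand. Lgi1 is on chromosome 19, Lgi2 and Adam22 are on chromosome 5, Lgi3 is on chromosome 14, Adam11 on chromosome 11 and Adam23 on chromosome 1. RefSeq promoter windows (GRCm38.p6, from 250 bases before to 50 bases after the start of the gene) were found for Lgi1, Lgi2, Adam22 and Adam23. Those of Adam22 and Adam23 are shown because these receptors had the closest covariation between mice of all pairs of members, and that of Lgi1 because it is the ligand that pairs with them. The windows are chr5:8368111-8368410 on the minus strand (Adam22), chr1:63445641-63445940 on the plus strand (Adam23) and chr19:38264437-38264736 on the plus strand (Lgi1), and capitals mark CpG dinucleotides.
Adam22: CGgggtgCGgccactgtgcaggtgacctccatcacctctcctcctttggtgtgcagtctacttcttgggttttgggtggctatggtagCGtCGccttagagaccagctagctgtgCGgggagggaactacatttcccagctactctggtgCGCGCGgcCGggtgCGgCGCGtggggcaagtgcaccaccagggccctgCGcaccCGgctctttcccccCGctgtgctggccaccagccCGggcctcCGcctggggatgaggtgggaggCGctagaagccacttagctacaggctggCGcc
Adam23: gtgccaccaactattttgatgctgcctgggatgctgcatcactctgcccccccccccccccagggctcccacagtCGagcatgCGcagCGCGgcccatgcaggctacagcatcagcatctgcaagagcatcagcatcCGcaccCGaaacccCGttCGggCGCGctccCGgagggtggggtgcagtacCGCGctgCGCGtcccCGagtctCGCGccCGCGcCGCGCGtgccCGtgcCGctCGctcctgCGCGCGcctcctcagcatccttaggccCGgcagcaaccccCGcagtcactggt
Lgi1: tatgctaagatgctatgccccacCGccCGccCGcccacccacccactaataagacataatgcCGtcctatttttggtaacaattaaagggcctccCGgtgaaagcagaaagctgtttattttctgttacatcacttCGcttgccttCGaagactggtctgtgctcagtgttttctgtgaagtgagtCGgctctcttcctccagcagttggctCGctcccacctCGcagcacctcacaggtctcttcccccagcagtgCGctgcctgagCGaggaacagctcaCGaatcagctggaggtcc

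The Adam23 window held 31 CpG dinucleotides and 70% G and C, and the Adam22 window 19 and 66.3%, against a median of 7 and 52.7% over 32851 promoters of the same length. The Lgi1 window held 13 CpG dinucleotides and 54% G and C, and that of Lgi2, which is not shown, held 27. At least 1 CpG was present in 94.6% of all promoters. The GC box GGGCGG, searched on both strands, occurred 3 times in the Lgi1 window, as overlapping matches within a single run of bases. It occurred 2 times in the window of Lgi2 and was not found in these letters in either receptor's window. It was present in 35.7% of all promoters. The TATA motif TATAAA, present in 13.6% of all promoters, was found in none of the 4 windows.

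Total counts per mouse ranged from 18809307 to 100844898 with a median of 41297502, and the 7 genes had between 776 (Lgi2) and 25177 counts (Adam11) in a mouse. Markers of hippocampal pyramidal and granule cells (Neurod6, Fibcd1, Prox1 and C1ql2) summed to 350 to 593 CPM (counts scaled to the library total) in every mouse, and the male-specific gene Ddx3y had at most 3 counts in a female and at least 765 in a male. SI males 25, 33 and 39 stood apart from the other males on the leading principal component, at 63.4 to 103 against -37.6 to 0.748 in the remaining 12, so results on the members that use SI males are also given without these 3 mice.

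Which of the ligands and receptors the hippocampus holds most of was asked per length, as counts per kilobase of the longest annotated transcript scaled to the same total in every mouse (TPM). Adam11 had the highest median level over the 30 mice at 92.2 (range 44.3 to 136), followed by Lgi1 at 85.4 (65.5 to 124) and Lgi3 at 76.7 (60.3 to 114). Lgi4 followed at 33.6 (15.3 to 40.0), Adam23 at 33.1 (15.9 to 51.1), Adam22 at 26.0 (11.7 to 40.9) and Lgi2 at 20.8 (9.44 to 32.7). The neighbours Lgi4 and Adam23 could not be ordered, since Lgi4 was the higher in 16 of 30 mice, whereas Adam23 was above Adam22 in 30 of 30 mice and Adam22 above Lgi2 in 28 of 30. Adam11 was above Lgi1 in 23 of 30 mice and Lgi1 above Lgi3 in 23 of 30.

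The choice of length set part of this order. With the mean length of the annotated transcripts, Adam11 stood at 211, Lgi1 at 88.0, Lgi4 at 56.4, Lgi3 at 54.4, Adam22 at 36.9, Adam23 at 33.8 and Lgi2 at 22.6. Lgi4 then lay beside Lgi3, above it in 14 of 30 mice, and Adam22 above Adam23 in 29 of 30. Adam11 and Lgi1 were the highest receptor and ligand and Lgi2 the lowest member by either length. Without SI males 25, 33 and 39 the order by either length differed only in that Adam23 (33.8) and Lgi4 (33.7), which could not be ordered, changed places with the longest transcript.

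**Figure D1:**
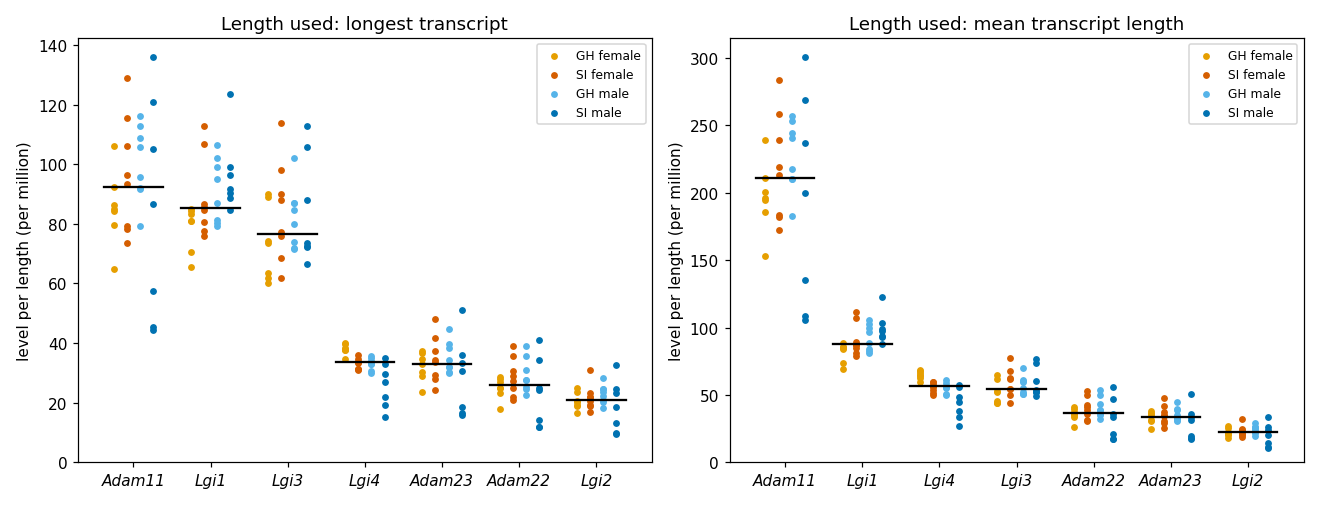
Level per length of each gene (vertical axis, TPM) in each of 30 mice, coloured by group, with the longest transcript (left) or the mean transcript length (right), and a black line at the median. Adam11 and Lgi1 lead and Lgi2 is lowest in both panels, while Lgi4 moves from beside Adam23 at 33.6 to beside Lgi3 at 56.4.

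Lgi4 is the gene on which the members were selected, and its values by housing are a description. In normalized CPM, which are scaled by the TMM factors of edgeR, it ranged from 61.1 to 75.1 with a median of 67.5 in GH females and from 45.5 to 61.3 with a median of 56.2 in SI females. Of the 8 SI females, 7 lay below every GH female, and the groups overlapped only through SI female 41 at 61.3 beside GH females 71 and 46 at 61.1 and 61.2. The mean was 55.3 ± 6.03 CPM for SI (SD, n = 8) and 68.04 ± 5.76 CPM for GH (SD, n = 7), and the fitted Log2FC, with 3 surrogate variables as covariates, was -0.27 (SE 0.040).

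In males Lgi4 ranged from 36.1 to 57.8 with a median of 45.97 in SI mice and from 48.6 to 63.2 with a median of 56.4 in GH mice. Of the 7 SI males, 5 lay below every GH male, and these 5 included mice 25, 33 and 39. The Log2FC was -0.16 (SE 0.095), and without those 3 mice it was -0.02 (SE 0.072). The mean was 47.4 ± 7.32 CPM for all SI males (SD, n = 7), 51.04 ± 6.70 CPM for the 4 SI males other than these 3 (SD, n = 4) and 55.5 ± 5.61 CPM for GH males (SD, n = 8), and SI males 7 and 38 of these 4 also lay below every GH male. The fit without the 3 mice also has its own surrogate variables and gene filter.

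**Figure D2:**
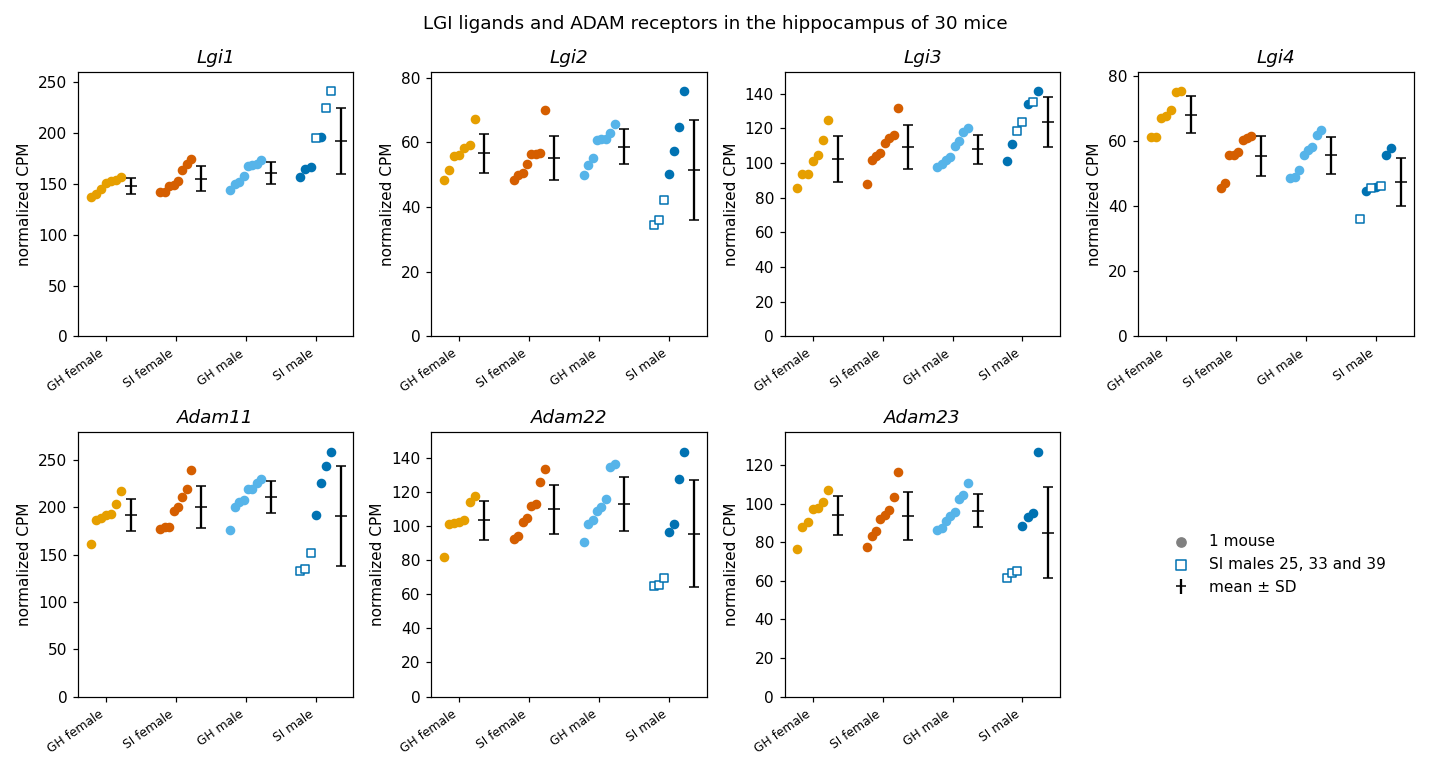
Normalized CPM (vertical axis, from 0) of each gene in each mouse by group, in order of value, with the mean ± SD beside the points and SI males 25, 33 and 39 as open squares. Lgi4 is lower in SI than in GH females (means of 55.3 against 68.04), and the open squares are the 3 lowest SI males for Adam11, Adam22, Adam23 and Lgi2 but lie among the highest for Lgi1.

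Markers of astrocytes moved with Lgi4. All 9 astrocyte markers had a negative Log2FC in SI females, with a median of -0.21 against 0.01 over all genes tested. Of them 4 passed the test, namely Slc1a2 and Slc1a3 (glutamate transporters), Aldoc and Aldh1l1, where 2.93% of all genes passed as lower. DESeq2 called 5 of the 9 (1262 of 16026 genes). Without surrogate variables 0 of the 9 passed, and 0 of 16026 genes did. The summed level of the 9 markers was 4137 to 5811 CPM in SI females and 5040 to 6731 CPM in GH females. In males it was 3236 to 5565 CPM with isolation and 4582 to 6291 CPM with group housing. Of the 9 markers, 8 had a negative Log2FC in SI males and 0 passed the edgeR test, 2 of them having an unadjusted p under 0.05, with 0 also in DESeq2 and in limma-voom. In bulk tissue, fewer cells of a type and less RNA per cell cannot be told apart.

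Per 1000 CPM of astrocyte markers, the mean of Lgi4 in females was 11.0 ± 0.541 with isolation (SD, n = 8) and 11.1 ± 0.965 with group housing (SD, n = 7). In males the mean was 11.4 ± 0.842 with isolation (SD, n = 7) and 10.5 ± 0.889 with group housing (SD, n = 8), and 11.03 ± 0.806 with isolation without the 3 males (SD, n = 4). The groups overlapped within each sex, and the difference in females, which was 55.3 against 68.04 CPM for Lgi4 itself, was 11.0 against 11.1 on this ratio. Per 1000 CPM of each other marker list, the mean of Lgi4 was lower in SI than in GH females. With oligodendrocyte markers it was 7.89 ± 0.580 against 8.50 ± 1.20, and with endothelial markers 320 ± 37.5 against 456 ± 56.4 (SD, n = 8 and n = 7). The part of the astrocyte markers in the difference of Lgi4 was not tested. The Schwann cell markers Prx and Ncmap summed to 1.49 to 2.54 CPM in a mouse.

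Markers of other cells moved in the same comparison of females. The Log2FC was negative for 8 of 8 oligodendrocyte markers (median -0.08), 6 of 6 microglial markers (-0.07), 2 of 2 Schwann cell markers (-0.28) and 3 of 4 oligodendrocyte precursor markers (-0.09). It was positive for 6 of 6 choroid plexus markers (median 0.27), 4 of 4 markers of pyramidal and granule cells (0.18), 5 of 5 endothelial markers (0.10), 4 of 4 pan-neuronal markers (0.05), 4 of 5 interneuron markers (0.08) and 3 of 4 striatal markers (0.07). Of these genes only the endothelial Flt1 passed the edgeR test (0.14, adjusted p = 0.0496), although up to 3 in a list had an unadjusted p under 0.05, and DESeq2 called 6 of them and limma-voom 1. Their part in the difference of Lgi4 was not tested.

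**Figure D3:**
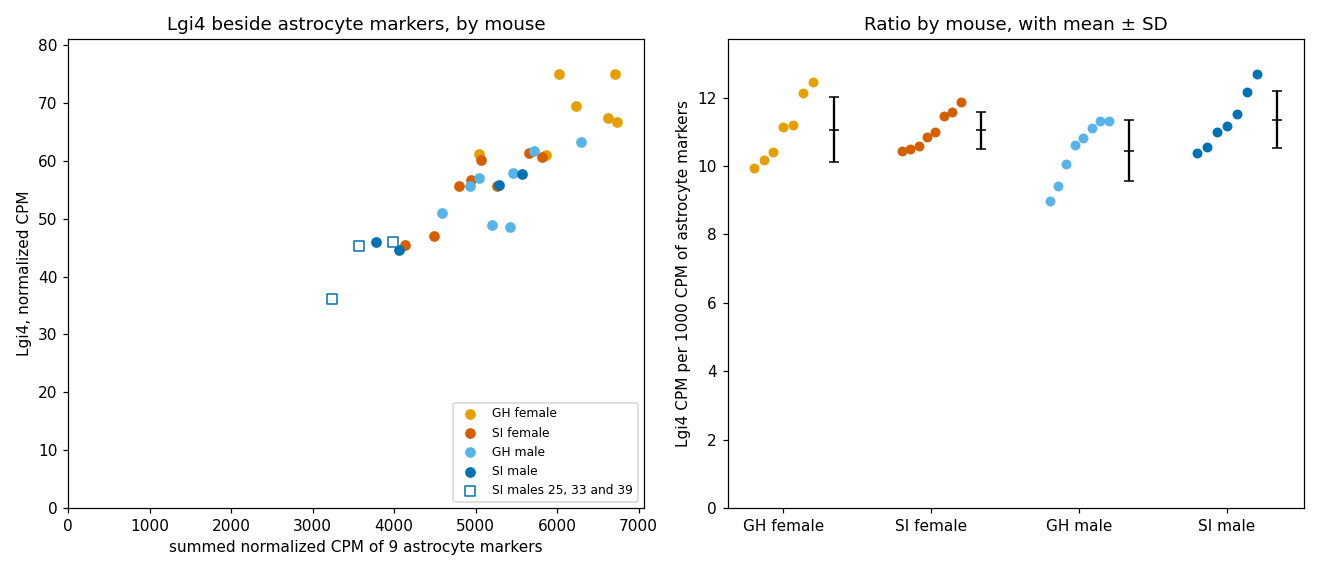
Left, Lgi4 (vertical axis, normalized CPM) against the summed normalized CPM of 9 astrocyte markers (horizontal axis) in each mouse. Right, Lgi4 CPM per 1000 CPM of these markers by mouse and group with mean ± SD, which lies between 10.5 and 11.4 in the 4 groups.

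As a share of the 4 ligands per length (longest transcript), Lgi4 made up 18.2% ± 2.20 in GH females, 14.8% ± 2.26 in SI females, 14.6% ± 1.87 in GH males and 11.5% ± 2.67 in SI males (SD). With the mean transcript length these shares were 29.5%, 24.6%, 24.2% and 19.5%. By either length the mean share of Lgi4 was lower in SI than in GH mice of each sex, and in SI males other than mice 25, 33 and 39 it was 12.7% ± 2.75 with the longest and 21.5% ± 4.10 with the mean length (SD, n = 4).

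The ligands other than Lgi4 had small differences in females. Lgi1 ranged from 137 to 157 CPM (median 150.4) in GH females and from 142 to 175 CPM (median 150.4) in SI females, with a Log2FC of 0.06 (SE 0.053). Lgi3 ranged from 85.4 to 125 CPM (median 101) in GH and from 88.0 to 132 CPM (median 109) in SI females, with a Log2FC of 0.04 (SE 0.061). Lgi2 had a Log2FC of -0.04 (SE 0.069), and its groups overlapped almost completely. The signs of these small values changed with the processing for Lgi1, Lgi2 and Lgi3.

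Among the receptors in females, Adam22 had the largest Log2FC at 0.09 (SE 0.052), from 81.8 to 118 CPM (median 102) in GH and from 92.5 to 133 CPM (median 108) in SI females. Adam11 had a Log2FC of 0.05 (SE 0.033) and Adam23 of -0.0011 (SE 0.044), and for each of the 3 receptors the groups overlapped. In females 1 of 7 members passed an adjusted p under 0.05 of edgeR's quasi-likelihood test, namely Lgi4, by which the genes were chosen, and 3.89% of all genes tested did (2.93% lower and 0.961% higher), so nothing is read from this count. Of the 6 others, 0 passed in edgeR, DESeq2 or limma-voom, and 0 had an unadjusted p under 0.05, which 20.2% of all genes had, with edgeR adjusted p-values of 0.365 to 0.991.

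In males, Lgi3 had the largest Log2FC of the 7 at 0.21 (SE 0.082), from 101 to 141 CPM (median 123) in SI and from 97.8 to 120 CPM (median 107) in GH mice, with 4 of 7 SI males above every GH male. Lgi1 stood at 156 to 241 CPM (median 195) in SI males and 144 to 174 CPM (median 162) in GH males, a Log2FC of 0.12 (SE 0.078), and its highest values were in SI males 25 and 33 at 241 and 225 CPM. Without mice 25, 33 and 39 the Log2FC of Lgi3 was 0.02 and that of Lgi1 0.04. With each of the 15 males left out in turn, Lgi3 passed the edgeR test in 1 fit, that without SI male 27 (adjusted p = 0.0145). The highest adjusted p of Lgi3 in these fits was 0.9995. Mice 25, 33 and 39 remain in the fit without SI male 27, and its share of all genes passing is not given here, so nothing is read from this call.

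The receptors of the same 3 mice went the other way. Adam11 was at 133 to 152 CPM in SI males 25, 33 and 39 and at 177 to 259 CPM in the other 12 males. Adam22 was at 64.6 to 69.8 CPM in them and at 90.4 to 143 CPM in the others, and Adam23 at 61.7 to 65.2 CPM and at 86.5 to 127 CPM. Lgi2, too, was at 34.4 to 42.0 CPM in the 3 mice and at 49.8 to 75.7 CPM in the others. With surrogate variables in the fit the Log2FC of these 4 genes was between -0.03 (Adam22, SE 0.073) and 0.05 (Adam11, SE 0.061, and Lgi2, SE 0.071), and that of Adam23 was 0.02 (SE 0.073). Without surrogate variables they lay between -0.24 and -0.14. The longest annotated transcripts of Adam22, Adam23, Lgi2 and Adam11 have 9404, 6656, 6213 and 5102 bases. Those of Lgi1, Lgi4 and Lgi3 are shorter, at 4259, 4037 and 3180 bases. The part of transcript length in the differences of the 3 mice was not tested.

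In males 0 of 7 members passed the edgeR test, 1 had an unadjusted p under 0.05 (Lgi3), and 0 passed in DESeq2 or limma-voom, where 0% of all genes tested passed in edgeR and 13% had an unadjusted p under 0.05. Without SI males 25, 33 and 39 all 7 Log2FC lay between -0.03 and 0.04. That fit holds 4 SI males and 8 GH males.

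**Figure D4:**
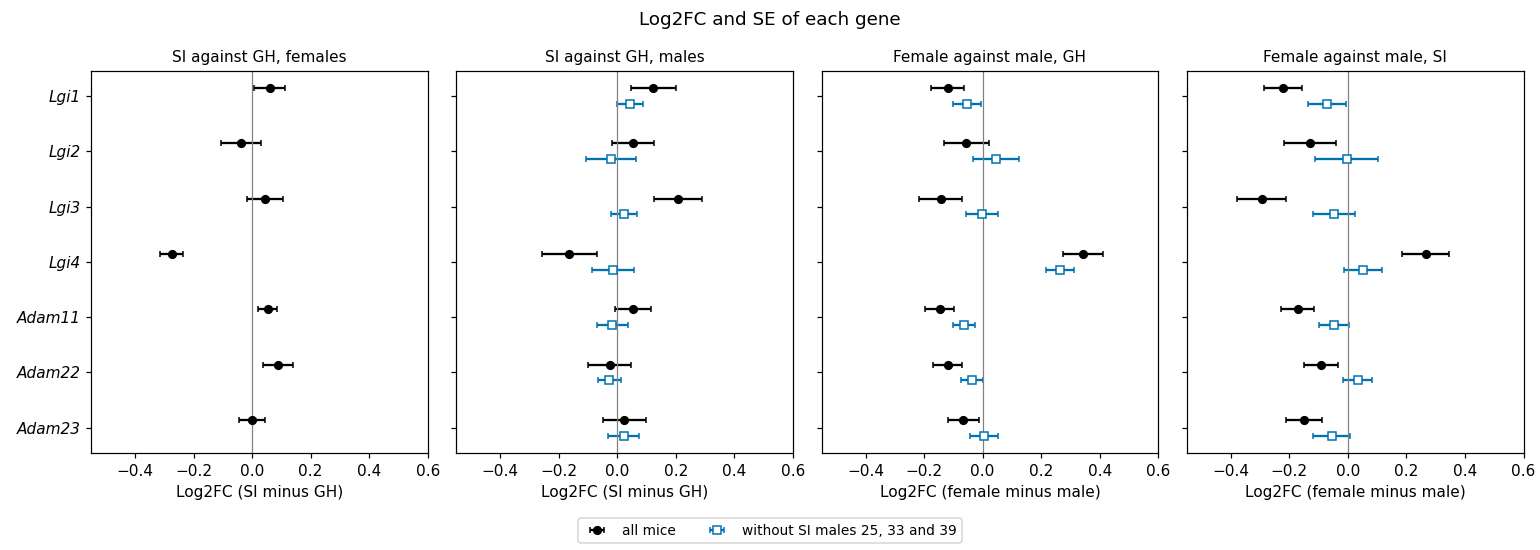
Log2FC (horizontal axis) of the 7 genes with bars of 1 SE in 4 comparisons, for all mice (black circles) and without SI males 25, 33 and 39 (open squares, where the comparison uses them). Lgi4 is at -0.27 in females and, for GH females against GH males, at 0.34 with all mice and 0.26 without the 3 males.

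Whether the members differed between the sexes was tested with the 4 groups fitted together and 4 surrogate variables. In GH mice Lgi4 was higher in females, at 61.1 to 75.1 CPM against 48.6 to 63.2 CPM, with 5 of 7 females above every male and 6 of 8 males below every female. The Log2FC (female minus male) was 0.34 (SE 0.068), and without SI males 25, 33 and 39 it was 0.26 (SE 0.049). The values of the GH females and the GH males were both part of the comparisons on which Lgi4 was selected, so they are a description here too. Lgi4 was the 1 of 7 members that passed the edgeR test, where 6.31% of all genes did (3.01% lower and 3.31% higher in females), and nothing is read from this count.

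Astrocyte markers moved with Lgi4 here too, and their part in its difference was not tested. All 9 had a positive Log2FC in GH females against GH males, with a median of 0.21. Aldoc and Aldh1l1 passed the test, where 6.31% of all genes did. Without surrogate variables 0 of the 9 passed, where 16 of 16391 genes did. The other 6 members had negative Log2FC of -0.15 to -0.06, lowest in Adam11 (-0.15, SE 0.049, edgeR adjusted p = 0.0648), and 3 of them, Lgi1, Adam11 and Adam22, had an unadjusted p under 0.05, which 26.4% of all genes had. In DESeq2 Adam11 also passed (adjusted p = 0.0393), where 1935 of 16391 genes did. Without SI males 25, 33 and 39, 0 of the 6 had an unadjusted p under 0.05 in edgeR, and 150 of 16645 genes passed. The count was also 0 of the 6 without surrogate variables, or with the digit that ends each sample name as a factor.

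In SI mice 3 of 7 members passed the test between the sexes, where 6.28% of all genes did (3.38% lower and 2.9% higher in females), and 5 had an unadjusted p under 0.05, which 28.1% of all genes had. Lgi1 was lower in females (Log2FC -0.22, SE 0.065, edgeR adjusted p = 0.0420), as was Lgi3 (-0.29, SE 0.084, adjusted p = 0.0414). The third was Lgi4, whose values in SI mice were part of the selection and whose Log2FC of 0.27 (SE 0.080) is a description. Of the 9 astrocyte markers, 8 had a positive Log2FC and 1, Fgfr3, passed. All 8 SI females lay below the median of the SI males for Lgi1, but that median was the value of SI male 39 at 195 CPM. SI males other than 25, 33 and 39 were at 156, 164, 167 and 196 CPM, among SI females at 142 to 175 CPM. Without SI males 25, 33 and 39 the Log2FC of the 3 members, in the order given, were -0.07, -0.05 and 0.05. In that fit 0 of 7 members passed, where 8 of 16645 genes did. The 3 calls also depended on single mice of every group. None of the 7 passed when SI female 41, 52, 53, 68 or 73, GH female 46, 47, 48, 54 or 71, SI male 7, 8, 25, 33 or 38, or GH male 1, 2, 3 or 22 was left out, and 1 passed without GH male 23 or GH female 78.

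The sex difference averaged over both housings gives each housing the same weight. It still uses the values of Lgi4 in all 4 groups, which were part of the selection. The Log2FC of Lgi4, at 0.30 (SE 0.055) and so higher in females, is therefore a description here too. Lower in females were Adam11 (-0.16, edgeR adjusted p = 0.00691), Lgi1 (-0.17, adjusted p = 0.00867) and Lgi3 (-0.22, adjusted p = 0.0100). These were 3 of the 6 members other than Lgi4, and 4 of 7 with it, where 24.5% of all genes passed (11.7% lower and 12.8% higher in females). Of the astrocyte markers 7 of 9 passed, all higher in females. Without SI males 25, 33 and 39 the Log2FC of Lgi4 was 0.16 and those of the other 6 lay between -0.06 and 0.02. In that fit 0 of 7 members passed, where only 10 of 16645 genes did. Without SI male 38 or without GH female 71, 2 members passed.

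The difference between the sexes in the effect of housing was tested as an interaction. None of the 7 members passed in edgeR, DESeq2 or limma-voom, 0 in edgeR had an unadjusted p under 0.05, where 0% of all genes passed in edgeR and 7.48% had an unadjusted p under 0.05. The edgeR adjusted p of the 6 members other than Lgi4 was 0.779 to 0.953. The interaction of Lgi4 is built from the housing differences used in the selection and is a description, at -0.08 (SE 0.100) with all mice and -0.21 (SE 0.068) without SI males 25, 33 and 39.

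Of 29 genes that work with the LGI and ADAM proteins, 2 passed the test in SI against GH females, both lower, where 3.89% of all genes passed. They were the membrane scaffolds Dlg4 (PSD-95, Log2FC -0.18, SE 0.042, edgeR adjusted p = 0.0242) and Dlg2 (PSD-93, -0.19, SE 0.048, adjusted p = 0.0374). The related scaffold Dlg1 was at -0.10 (adjusted p = 0.110) and Dlg3 at 0.13 (adjusted p = 0.0757), so that the 4 scaffolds did not share a sign. Beside them the smallest p-values were those of Ywhah, a 14-3-3 protein, at 0.14 (adjusted p = 0.0584), and of the AMPA receptor subunit Gria2 at 0.15 (adjusted p = 0.130). Over the 29 genes the median Log2FC was 0.04, against 0.01 over all genes tested. Other settings called between 0 (without surrogate variables, or with the digit that ends each sample name as a factor in their place) and 5 (DESeq2) of the 29. Of 16026 genes, 0 passed in the former 2 settings and 1262 in DESeq2.

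In SI against GH males 0 of the 29 passed in edgeR, where 0% of all genes did. An unadjusted p under 0.05 was found for 4 of the 29, near the 13% of all genes that had one. In DESeq2 1 of the 29 passed, where 44 of 15833 genes did, and in limma-voom 0 of the 29 and 0 of all genes. The smallest p-values were those of Dlg2 (-0.39, SE 0.102, edgeR adjusted p = 0.295), Gria4 (-0.20), Dlg1 (-0.21) and Cacng2 (0.27), an auxiliary AMPA receptor subunit. Without SI males 25, 33 and 39, 0 of the 29 passed in males, where 1 of 16241 genes did.

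Between the sexes in GH mice 5 of the 29 passed, where 6.31% of all genes did. Dlg4 was higher in females (0.16, SE 0.049, edgeR adjusted p = 0.0458), and Dlg3 (-0.23), Ywhah (-0.21), the Nogo receptor Rtn4r (-0.36) and the auxiliary AMPA receptor subunit Cacng3 (-0.21) were lower. Among those that missed the threshold, Ywhaz (-0.16), Ywhag (-0.15), Ywhab (-0.13) and Dlg1 (0.14) had the smallest p-values. In SI mice 5 of the 29 passed as well, with Gria4 (0.23), Dlg1 (0.24) and Dlg2 (0.31) higher and Ywhaz (-0.21) and Cacng2 (-0.31) lower in females, where 6.28% of all genes passed. Cacng8 (-0.32), Ywhag (-0.19), Cntnap2 (-0.33) and Kcna4 (-0.41) followed by p. Averaged over housing 19 of the 29 passed, 14 lower and 5 higher in females, where 24.5% of all genes passed. In each of these 3 comparisons 0 of the 29 passed without SI males 25, 33 and 39. Few of all 16645 genes passed in those fits either, namely 150 in GH mice, 8 in SI mice and 10 for the average, so nothing is read from these counts. Over the other settings the counts ran from 0 to 10 in GH mice, 0 to 11 in SI mice and 6 to 19 for the average. The number of all genes that passed changed with the setting as well. For the interaction 0 of the 29 passed in edgeR, DESeq2 or limma-voom, and 2 had an unadjusted p under 0.05 in edgeR. Of all genes, 0% passed in edgeR and 7.48% had such an unadjusted p.

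How the members varied together was described by the correlation of log2 CPM between mice after the mean of each group was subtracted. All points share their library, its depth and its normalization, so these values are given without a p. The 3 receptors moved together, with Pearson's r of 0.945 for Adam22 and Adam23, 0.90 for Adam11 and Adam23 and 0.90 for Adam11 and Adam22 over 30 mice, and of 0.89, 0.81 and 0.77 over the 27 mice without SI males 25, 33 and 39. Lgi2 went with them at r of 0.78 to 0.83 over 30 and 0.45 to 0.66 over 27 mice. Lgi1 had r of -0.29 to -0.13 with the receptors over 30 mice and of 0.65 to 0.73 over 27, so its sign here depended on the 3 mice.

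Lgi4 went against Lgi1 and Lgi3. Its r was -0.76 with Lgi1 and -0.70 with Lgi3 over 30 mice, and -0.71 and -0.72 over 27. With Lgi2 it was 0.029 over 30 mice and -0.56 over 27. With the receptors it was -0.19 to -0.05 over 30 mice but -0.79 to -0.67 over 27. Against the mean of the astrocyte markers Lgi4 had an r of 0.85 over 30 and 0.86 over 27 mice, and against pan-neuronal markers -0.70 and -0.64. Lgi1 (-0.68 and -0.67) and Lgi3 (-0.68 and -0.68) were negatively correlated with the astrocyte markers over 30 and 27 mice.

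**Figure D5:**
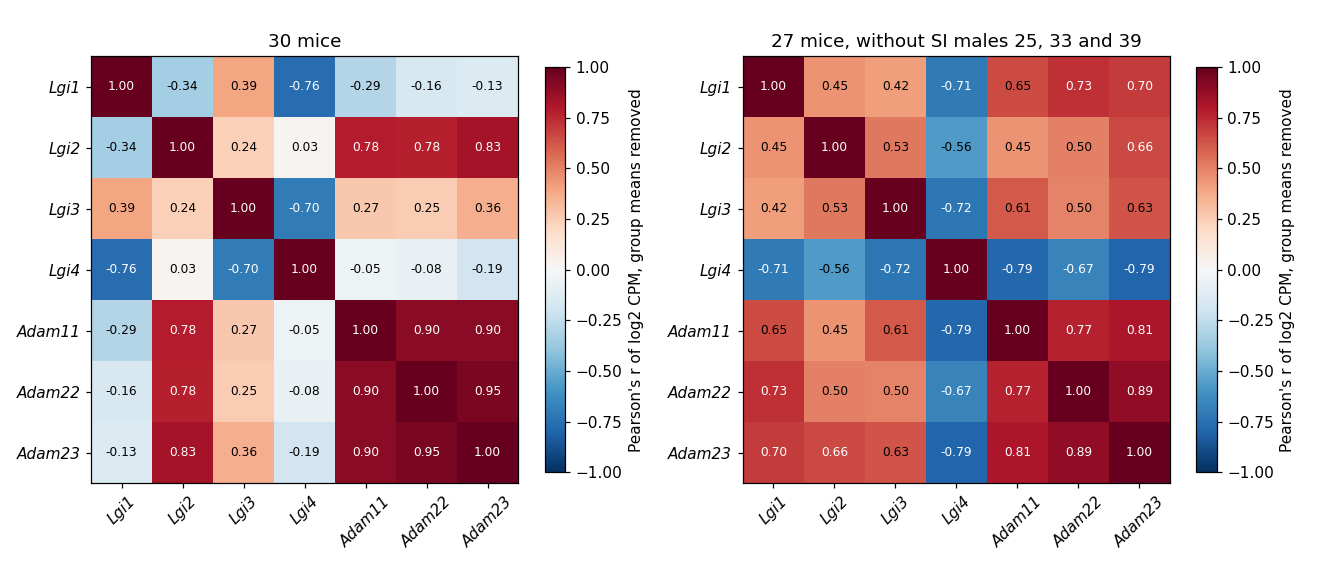
Pearson's r of log2 CPM between each pair of the 7 genes, with group means removed, over 30 mice (left) and over the 27 mice without SI males 25, 33 and 39 (right), from -1 in blue to 1 in red. The receptors form a red block in both panels (0.945 and 0.89 for Adam22 and Adam23), and Lgi4 is negative with Lgi1 and Lgi3 in both.

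Of 16390 other genes, Acsbg1 was the most like Lgi4, with an r of 0.92 over 30 and 0.91 over 27 mice. It was followed by Ttyh1 (0.91), Fads1 (0.90), Phactr3 (0.89), Plekhm2 (0.88), Ankrd40 (0.87), Kif5a (0.87), Rab31 (0.87), Lrrc57 (0.86) and Mapk8ip1 (0.86), all of them at 0.83 or above over 27 mice. The 3 genes most like Lgi1 were D3Bwg0562e (0.93), Gria2 (0.915) and Mtap9 (0.91). For Lgi2 they were Asap1 (0.95), Tcfe3 (0.91) and Scrn1 (0.90), and for Lgi3 Sart1 (0.882), Sv2a (0.87) and Chgb (0.87). Receptors had closer partners. The most like Adam11 were Nptxr, Nsf and Capn5 (0.976, 0.975 and 0.972), the most like Adam22 were Atp8a1, Gm5567 and Astn1 (0.985, 0.984 and 0.982), and the most like Adam23 were Atrn, Pi4ka and Gpr158 (0.97 each). Over the 27 mice without SI males 25, 33 and 39, Asap1 was still the gene most like Lgi2. The most like Lgi1 was then Elmod1 (r of 0.87, rank 421 over 30 mice), the most like Lgi3 was Tubb4 (0.915, rank 64) and the most like Lgi4 was Baalc (0.914, rank 60). For the receptors they were Ak5 for Adam11 (0.956, rank 180), Gm5567 for Adam22 (0.975, rank 2) and Gpr158 for Adam23 (0.97, rank 3). Elmod1, Tubb4, Baalc and Ak5 were named after their values were seen.

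Reads that could belong to other genes were checked from the reference. Of the 4584 exonic bases of Lgi4, 2059 are shared with Fxyd3 on the opposite strand. The sources used here do not say whether counting used strand, so it is not known how reads of these bases were divided between the genes. Fxyd3 had 42 to 355 counts per mouse (median 147) against 849 to 4788 for Lgi4, and its Log2FC was 0.07 (SE 0.135) in SI against GH females and 0.16 (SE 0.160) in males. Coding sequences within the LGI and within the ADAM group were 61.1% to 67.7% identical over aligned bases, and the longest run of identical bases was 25.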

How the data were processed

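RNA was extracted from frozen hippocampus and sequenced as poly(A)-selected paired-end libraries. The authors trimmed reads with Trimmomatic 0.39, quantified them with Salmon 1.8.0 and deposited 1 table of whole-number counts per Ensembl gene and mouse, not normalized, in which every gene has at least 100 counts over the 30 mice. The submitters' processing notes name GRCm39 and DESeq2 1.24.0, and the annotation release is not given in the sources used here. All 30 columns matched a mouse by name.

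Symbols were found for 16439 of 17477 genes, with lengths from GENCODE on NCBIM37. Counts were filtered with filterByExpr (minimum count 10, minimum total count 15), scaled by TMM and tested with edgeR 4.0.16 (glmQLFit, glmQLFTest, R 4.3.3). Surrogate variables from svaseq of sva 3.50.0 (20 permutations) were covariates, 3 in females, 2 in males and 4 in the fit of all groups. Housing was tested within each sex (16026 and 15833 genes), and the sexes and the interaction over all 4 groups (16391 genes). p-values were adjusted over all genes after Benjamini and Hochberg, 0.05 being the threshold, and SE is the absolute Log2FC divided by the square root of F. Correlations used log2 CPM with a prior count of 2. The edgeR fit was tried on simulated counts without surrogate variables, so that check does not cover the fits with surrogate variables. DESeq2 1.42.0, limma 3.58.1 and other settings were alternatives. The sex difference averaged over housing, and for the sex comparisons the sample-name digit and leaving out each mouse, were added after the data were seen.

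The members and the gene lists were chosen with earlier results of these data known. Genes were named by a rule, which took the 7 members, the partner genes called in a planned comparison with up to 4 others by smallest p, the 10 genes most like Lgi4 and the 3 most like each other member. Depth (18809307 to 100844898 counts) sets the counting error of each mouse. No 2 mice had counts that agreed within sampling noise, the smallest chi-square per degree of freedom between replicates being 8.71.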

Additional observations from a re-analysis of the deposited data

Results flagged for a closer look

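Lgi2 in SI female 45, at 70.0 normalized CPM, lay apart from the other 7 SI females, which were at 48.4 to 56.7 CPM. It was the only mouse to do so among 28 checks (7 genes in 4 groups) of the gap to the nearest mouse against Dixon's critical value, and chance gives such a gap in about 1 of 20 groups. The same mouse also had the highest Adam11 (239 CPM), Adam22 (133 CPM), Adam23 (117 CPM), Lgi1 (175 CPM) and Lgi3 (132 CPM) of the SI females and the lowest Lgi4 (45.5 CPM). Its library was the deepest of all mice, at 100844898 counts against a median of 43484444 in SI females. Its summed astrocyte markers were the lowest of the SI females, at 4137 CPM. The part of either in these values was not tested.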

How the results depend on the processing

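No paired analysis was possible because each mouse has a number of its own that no mouse of another group shares. The counts of members below include Lgi4, whose calls in every comparison rest on values used in the selection, so they are no sign of stability. Numbers in brackets are those of all genes that passed. In females the member called was Lgi4, 1 to 1 with a mouse left out, but 0 without surrogate variables and 0 with the sample-name digit as a factor, settings under which 0 of 16026 genes passed. In males 0 to 1 passed with a mouse left out. For the sexes in GH mice DESeq2 called 2 members (1935 of 16391 genes). The fits without surrogate variables (16 genes) or with the digit (9 genes) called 0 each, and 1 to 3 passed with a mouse left out. For the sexes in SI mice the count was 1 without surrogate variables (4277 of 16391 genes), 1 with the digit (1698 genes) and 4 in DESeq2 (1975 genes). It was 0 in limma-voom (15 genes) and 0 without SI males 25, 33 and 39 (8 of 16645 genes). Without the filter or with the length and GC trend removed it was 0 too, and with a mouse left out 0 to 4. Averaged over housing it was 2 without surrogate variables (2301 of 16391 genes), in limma-voom (1253 genes), with the digit (1076 genes) or with the trend removed. It was 0 without the 3 males (10 of 16645 genes), and 2 to 6 with a mouse left out. DESeq2 called 6 (4497 genes). The counts of members thus stand beside numbers of all genes that changed with the setting as well. For the interaction it was 0 to 0. With the mean transcript length the levels of Adam11, Adam22, Lgi3 and Lgi4 moved to 211, 36.9, 54.4 and 56.4, and without the 3 males the r of Adam11 and Nptxr was 0.94. The interaction of Lgi4 was 0.04 without SI male 27.

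Signs of small values changed. In SI against GH females, Lgi1 and Lgi3 were at -0.0011 and -0.021 with the trend removed, Lgi2 and Adam23 at 0.0067 and 0.022 with the digit, and Adam23 at 0.0049 without the filter. In males, Lgi2, Adam11 and Adam23 were at -0.18, -0.14 and -0.18 without surrogate variables, at -0.058, -0.031 and -0.084 in limma-voom and at -0.20, -0.17 and -0.20 with the digit, Lgi2 and Adam11 at -0.022 and -0.017 without the 3 males, and Adam22 at 0.10 with the trend removed and 0.066 with all groups in 1 fit. In GH mice without the 3 males, Lgi2 and Adam23 were at 0.045 and 0.0045 (female minus male). In SI mice Lgi2, Adam11, Adam22 and Adam23 were at 0.098, 0.066, 0.20 and 0.14 without surrogate variables and at 0.050, 0.051, 0.16 and 0.093 with the digit, Adam22 and Adam23 at 0.042 and 0.021 in limma-voom, and Adam22 at 0.033 without the 3 males. Averaged over housing, Lgi2, Adam22 and Adam23 were at 0.024, 0.037 and 0.052 without surrogate variables, and Lgi2 at 0.020 without the 3 males. With a mouse left out, Lgi2 and Adam23 ran from -0.089 to 0.012 and -0.038 to 0.036 in females, Lgi2, Adam11, Adam22 and Adam23 from -0.079 to 0.118, -0.021 to 0.106, -0.149 to 0.056 and -0.124 to 0.090 in males, and Adam22 and Adam23 from -0.139 to 0.093 and -0.202 to 0.0004 between the sexes in SI mice. The causes were not tested. The counts behind each member were at least 776 in every mouse.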

Other observations

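The ADAM receptors were positively correlated with markers of oligodendrocyte precursors (Pdgfra, Cspg4, Vcan and Sox10), at an r of 0.89 for Adam11, 0.91 for Adam22 and 0.92 for Adam23 over 30 mice and of 0.68, 0.81 and 0.86 over the 27 without SI males 25, 33 and 39. With markers of pyramidal and granule cells the r of Adam11, Adam22 and Adam23 was 0.82, 0.82 and 0.78 over 30 mice and 0.85, 0.79 and 0.72 over 27, and that of Lgi4 was -0.30 and -0.70. The r of the receptors with microglial markers was -0.90, -0.90 and -0.91 over 30 mice and -0.73, -0.78 and -0.83 over 27, and that of Lgi4 was 0.09 and 0.84.

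Choroid plexus markers summed to 1559 to 3965 CPM in SI females and 853 to 4888 CPM in GH females. Over all mice they summed to 39.5 to 4888 CPM, oligodendrocyte markers to 4968 to 10357 CPM, interneuron markers to 503 to 859 CPM, pan-neuronal markers to 2580 to 3769 CPM and striatal markers to 78.1 to 165 CPM in a mouse.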
